A study of Mus musculus with 12 samples.

Results

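The 37 genes described here encode the glucose transporters, the enzymes that turn glucose into pyruvate and lactate, the lactate transporters, and the pentose phosphate enzymes of mouse macrophages and osteoclasts. They were taken from a list of gene symbols and kept where the symbol matched the expression table and reached 1 FPKM (fragments scaled to gene length and to library depth, here with a denominator per library described under processing) in at least 3 of the 12 libraries. All 37 listed symbols passed, so the set holds 37 of the 11335 genes that were tested. No measured difference was used to choose them, although the list was drawn up with earlier results of these data known. RNA was sequenced in 4 groups of 3 libraries, all from bone marrow cells of wild-type mice expanded with CMG, a source of the macrophage growth factor M-CSF. Untreated macrophages received neither RANKL nor lipopolysaccharide (LPS, a bacterial outer membrane component that macrophages sense through TLR4). LPS-treated macrophages received 100 ng/mL LPS for 3 h on day 5. Untreated osteoclasts were grown with RANKL, the cytokine that turns such precursors into bone-resorbing cells, and LPS-treated osteoclasts received RANKL and the same LPS dose. The RANKL dose in the sample labels is 100 ng/mL, the upper end of a range that the protocol gives. The labels give no age or sex of the mice. Gene coordinates are those of build GRCm38 with GENCODE M21. No label says whether libraries of a group came from separate mice or cultures, so a p-value here measures the spread between libraries, which may be technical.

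Glycolysis carries glucose from the membrane to pyruvate in the cytosol and yields ATP without oxygen. Its flow is set mainly at uptake, at hexokinase and at phosphofructokinase, and the last of these is switched on by a fructose bisphosphate made by the PFKFB enzymes. Pyruvate then becomes lactate, which leaves the cell with a proton, or enters the mitochondria unless PDK kinases block its oxidation, and the pentose phosphate pathway branches off early to make NADPH and ribose. Activated macrophages are known for high glycolysis and lactate output, and osteoclasts for high demand for ATP during acid secretion.

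Hypoxia-inducible factor, a regulator of many glycolysis genes, binds DNA at the letters ACGTG or GCGTG, and NF-kB, which acts downstream of LPS, binds sites of the kappaB consensus. The 250 bases before the RefSeq gene start (build GRCm38.p6) were available for 36 of the 37 members; Slc2a3 was the exception. On either strand, ACGTG was found before 14 of the 36 members (38.89%) and before 18.49% of all 27025 genes with a window. GCGTG was found before 25 of the 36 (69.44%) and before 30.85% of all genes, and at least 1 of the pair before 31 (86.11%) and 41.54%. Matches on opposite strands can overlap one another, and genes with several starts counted as matching when any window matched. The 36 members had 52 windows and the 27025 genes had 32851, and these genes far outnumber the 11335 tested here. The shares therefore compare unlike sets. The kappaB consensus was found before 3 members (8.333%) and 8.233% of all genes. These are letter matches and no sites of binding, and the start used in these cells is not known. Windows of 3 members are shown, all without an annotated exon of their gene. Slc2a6 and Hk2 had the highest LPS effects on log2(FPKM + 1) in both cell types among members with such a window, and Ldhb had the highest osteoclast excess. Each is written 5′ to 3′ on the gene's own strand, the minus strand, and capitals mark ACGTG or GCGTG on either strand.
Slc2a6, chr2:27027999-27028248: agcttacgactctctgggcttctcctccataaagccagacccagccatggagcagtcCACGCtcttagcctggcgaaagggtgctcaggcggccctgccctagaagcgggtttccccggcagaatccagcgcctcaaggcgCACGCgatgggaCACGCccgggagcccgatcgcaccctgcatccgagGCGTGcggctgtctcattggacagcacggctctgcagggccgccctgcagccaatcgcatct
Hk2, chr6:82774455-82774704: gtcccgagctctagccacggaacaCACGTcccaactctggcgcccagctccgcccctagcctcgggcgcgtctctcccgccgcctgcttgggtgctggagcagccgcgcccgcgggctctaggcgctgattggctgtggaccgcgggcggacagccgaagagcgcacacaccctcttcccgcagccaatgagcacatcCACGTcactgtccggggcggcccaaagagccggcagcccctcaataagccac
Ldhb, chr6:142507958-142508207: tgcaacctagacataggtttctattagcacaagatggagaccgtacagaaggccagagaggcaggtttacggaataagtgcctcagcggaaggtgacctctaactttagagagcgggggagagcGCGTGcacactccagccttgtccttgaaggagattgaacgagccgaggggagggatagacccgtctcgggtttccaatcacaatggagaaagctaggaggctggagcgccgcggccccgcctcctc
In the Slc2a6 window GCGTG began 193, 109, 97 and 62 bases before the start. In the Hk2 window ACGTG began 226 and 52 bases before it, and in the Ldhb window GCGTG began 126 bases before it. The kappaB consensus was in none of these windows. The window of Eno2, which LPS also raised in both cell types, held neither of these letter strings nor the consensus.

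Libraries held between 15651763 and 20281452 assigned reads, recovered from the steps of the FPKM values, and 9728 to 10301 genes at 1 FPKM or more. Replicates differed by more than counting error, by a chi-square over its degrees of freedom of 2.615 to 12.55. Markers followed the cell type labels. The 10 osteoclast markers summed to 29220 to 32220 FPKM in osteoclast libraries and to 16.3 to 29.0 FPKM in macrophage libraries, where Calcr and Oscar were at 3 reads or fewer. The 8 macrophage markers summed to 3111 to 3774 FPKM in macrophages and to 1742 to 1829 FPKM in osteoclast cultures. Most of the sum in untreated osteoclasts was Cd68, at 1402 FPKM against 670 FPKM in untreated macrophages. Csf1r followed, at 310 against 441 FPKM. The other markers were far lower in untreated osteoclasts, such as C1qa at 34.6 against 1115 FPKM and Mrc1 at 2.57 against 293 FPKM. In such bulk samples, fewer cells of a type and less RNA per cell cannot be told apart. The 9 stromal markers summed to 27.7 to 38.4 FPKM in macrophages and 0.754 to 1.80 FPKM in osteoclasts. In each macrophage group 4 of the 9 had a mean of 1 FPKM or more, while Dcn and Lum were at 0 reads. The 8 neutrophil markers summed to 5.62 to 16.4 FPKM in macrophages and 0.247 to 1.88 FPKM in osteoclasts. In each macrophage group 3 of the 8 had a mean of 1 FPKM or more, while Elane and Ly6g were at 3 reads or fewer in every group. No stromal or neutrophil marker had such a mean in osteoclasts. The 7 lymphoid markers summed to 0.0108 to 0.268 FPKM in macrophages and 2.99 to 3.96 FPKM in osteoclasts, of which Trac alone was at 1 FPKM or more, with Cd3d and Nkg7 at 0 reads. The 5 dendritic cell markers summed to 0.273 to 0.293 FPKM in untreated and 5.26 to 6.02 FPKM in LPS-treated macrophages, mostly Xcr1, and to 0.638 to 0.710 and 1.28 to 1.71 FPKM in osteoclasts, while the 6 erythroid markers reached at most 0.135 FPKM. The part of these cells in the results was not tested. Mitochondrial genes took 1.27% to 1.62% of reads in macrophages and 5.16% to 6.18% in osteoclasts. The 6 genes chosen to check the LPS labels summed to 58.1 to 63.1 FPKM in untreated and 11652 to 12090 FPKM in LPS-treated macrophages, and to 8.34 to 10.8 and 470 to 799 FPKM in osteoclasts.

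The first comparison asked how 3 h of LPS changed these genes in macrophages. The highest rises were those of Slc2a6, a hexose transporter, by 41.0-fold, Pfkfb3, the PFKFB enzyme with the strongest kinase activity, by 9.69-fold, Hk2, an inducible hexokinase, by 7.05-fold and Pfkp, the platelet-type phosphofructokinase, by 2.72-fold. LPS lowered Pfkfb4 by 2.95-fold, Pfkfb2 by 3.23-fold and Slc2a3 by 2.30-fold, while the abundant enzymes between aldolase and pyruvate moved by less than 1 on the log2 scale. By limma on log2(FPKM + 1), with adjusted p under 0.05 over all genes tested as the rule for a call, 17 members were higher, 10 lower and 10 not called. Over all genes, 36.8% were called higher and 33.1% lower, so the members' counts were near this background. The median log2 difference was 0.09 over the members and 0.02 over all genes tested. On log2(FPKM + 1), which shrinks the changes of low genes, 4 members rose and 1 fell by 1 or more.

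The direction of the small changes depended on how libraries were scaled. The FPKM columns summed to 255852 to 261584 in untreated and to 399796 to 408994 in LPS-treated macrophages, and the denominators found in the deposited values hold the typical gene level, and not this sum, equal between libraries. Rescaling each library to TPM (the same fixed sum in every library) moved the median of all genes to -0.55 in this comparison, and the share of calls that were higher from 52.6% to 18.5%. Members called were then 5 higher and 27 lower, and after quantile normalization, with a median of all genes of -0.14 and 37% of calls higher, 11 higher and 21 lower. Slc2a6, Pfkfb3, Hk2, Pfkp and Eno2 were called higher under each of these scalings. All 10 members called lower stayed below 0, Rpia without a call after quantile normalization. As both scalings moved the median of all genes below 0, this adds no support for the lower calls. Of the other 12 members called higher, 7 were called lower as TPM.

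**Figure D1:**
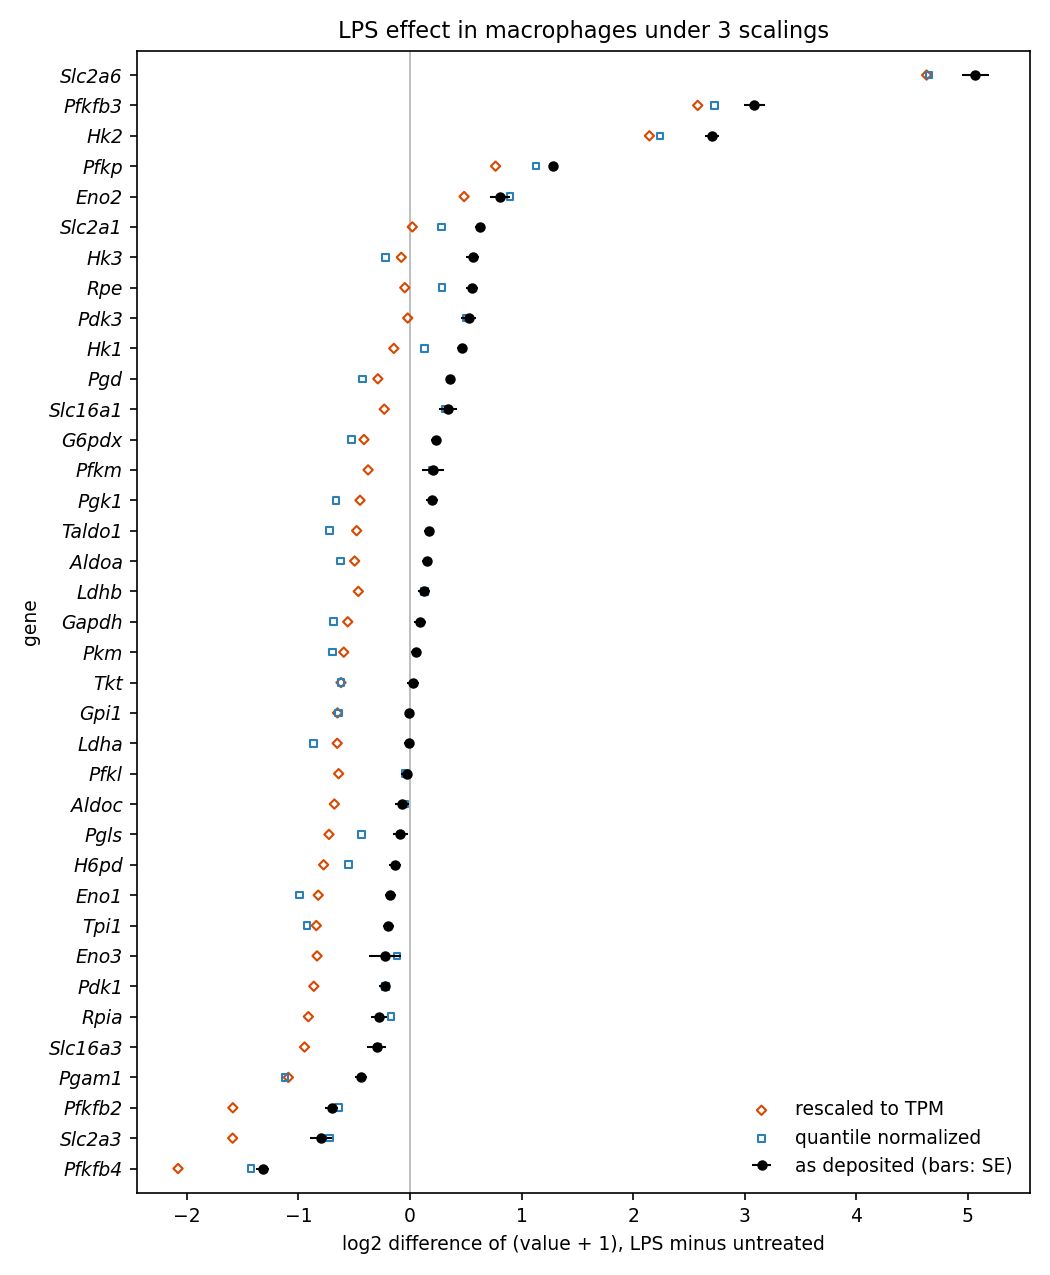
Log2 difference of each member between LPS-treated and untreated macrophages, as deposited (black points, bars are SE, 3 libraries a group), after rescaling to TPM (open diamonds) and after quantile normalization (open squares). Slc2a6, Pfkfb3, Hk2, Pfkp and Eno2 lie to the right of 0 under each scaling, while most members between 0 and 0.63 cross to the left as TPM.

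LPS in osteoclasts changed fewer members. In this comparison 7 members were higher, 2 lower and 28 not called, where 11.1% of all genes were called higher and 6.59% lower. The 7 were Slc2a6, Pfkfb3, Hk2, Eno2, Ldhb, Pfkl and Slc2a1, and the 2 were Pfkfb2 and Pfkfb4. The median was 0.06 over the members and 0.01 over all genes, and on log2(FPKM + 1) Slc2a6 alone rose by 1 or more. As ratios of mean FPKM, Pfkfb3 rose 3.03-fold and Eno2 3.26-fold as well. As TPM the split was 5 higher and 4 lower, and after quantile normalization 6 and 6, with 62.8% of all calls higher as deposited, 43.5% as TPM and 38.5% after quantile normalization; none of the 9 called members turned. The comparisons of the LPS effect in each cell type share no libraries, and their difference was tested as the interaction below.

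Untreated osteoclasts differed from untreated macrophages in most members. Most enzymes between aldolase and enolase, both lactate dehydrogenases, Hk1, Pfkfb2 and the PDK kinases were higher in osteoclasts, led by Ldhb at 19.9-fold and Pfkfb2 at 11.6-fold. On log2(FPKM + 1), Hk3, Pfkfb3, Slc2a3 and G6pdx had the lowest differences. As ratios of mean FPKM, Slc2a3 was 25.6-fold, Hk3 7.85-fold, Pfkfb3 7.24-fold and Eno2 5.72-fold lower in osteoclasts. Of the members 21 were called higher, 10 lower and 6 not called, against 38.8% higher and 39.0% lower over all genes, with a median of 0.28 against 0.00. Higher genes made up 49.9% of all calls as deposited and 29.9% as TPM, with the median of all genes at -0.38, and the members then split into 17 higher and 18 lower. Of the 21 called higher, 17 kept the call as TPM, and Pkm, Tkt and H6pd turned to lower. With LPS in both cell types, 22 members were higher and 13 lower in osteoclasts, where 40.9% and 43.0% of all genes were, and the median was 0.33 against -0.02. These 2 contrasts between cell types have no library in common, but each shares its macrophage and its osteoclast libraries with an LPS contrast above.

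**Figure D2:**
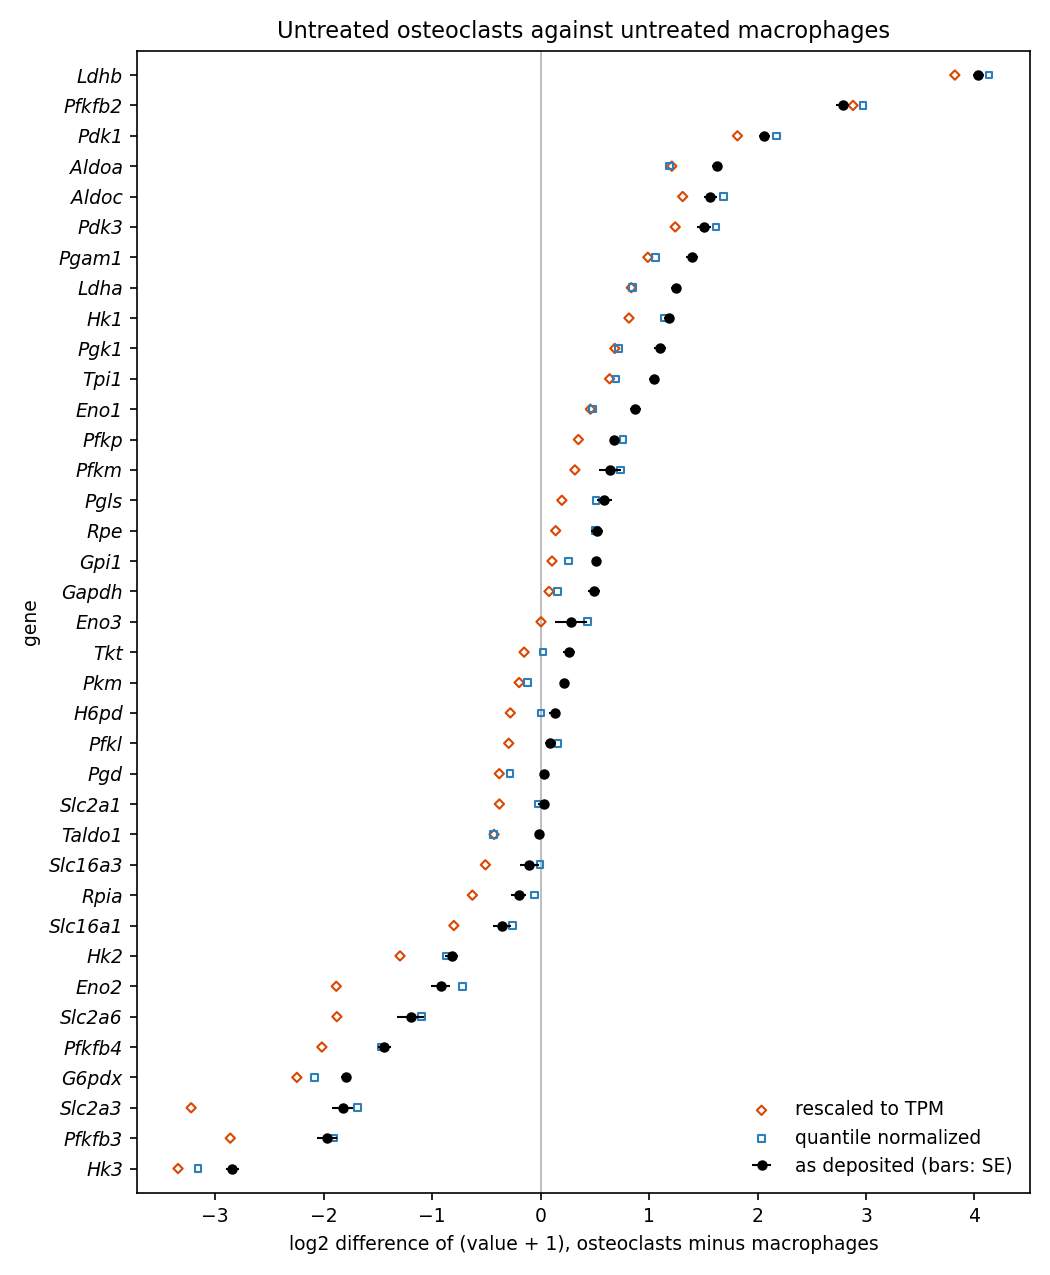
Log2 difference of each member between untreated osteoclasts and untreated macrophages, as deposited (black points, bars are SE, 3 libraries a group), as TPM (open diamonds) and after quantile normalization (open squares). Ldhb, at 4.03, and Hk3, at -2.84, mark the ends, and Slc2a1, Pfkl, Pkm, H6pd, Pgd and Tkt, all near 0, change sign as TPM.

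**Figure D3:**
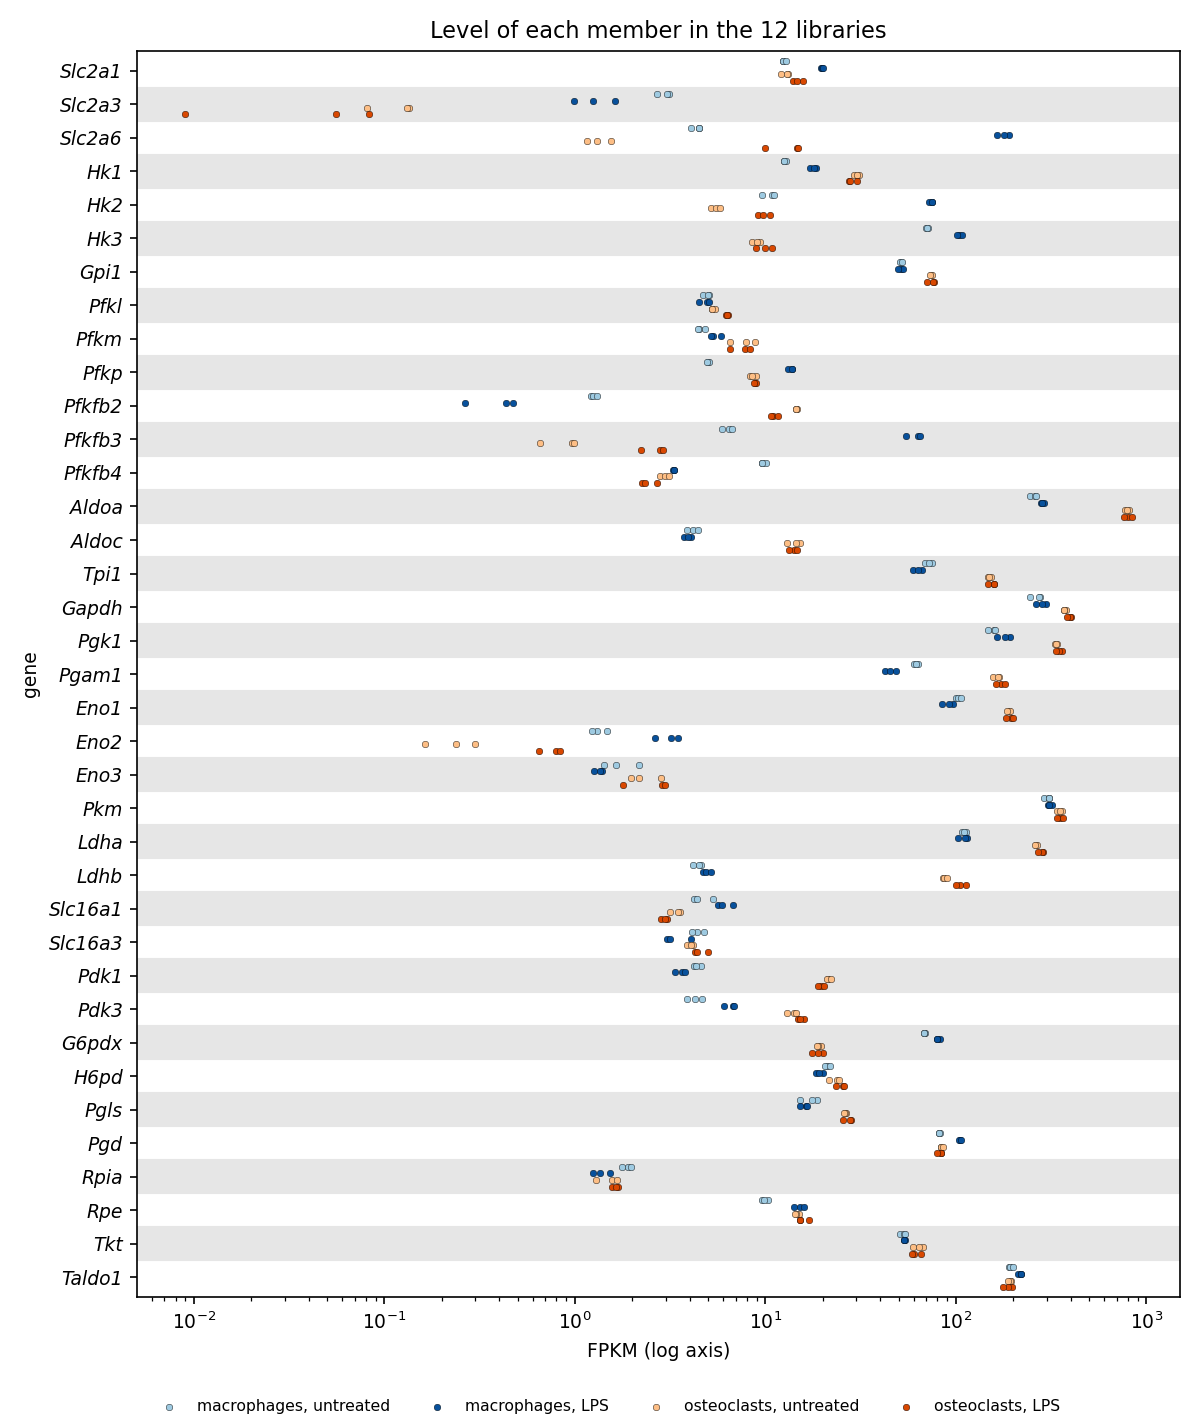
FPKM of the 37 members on a log axis, with 1 point for each of the 12 libraries, coloured by group. The 3 libraries of a group mostly sit close together, and Slc2a6 spans from 1.15 FPKM in an untreated osteoclast library to 191 FPKM in an LPS-treated macrophage library.

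Glucose enters through transporters of the GLUT family. Slc2a1 (GLUT1, ENSMUSG00000028645, chromosome 4, 119108711 to 119137983), the basal glucose carrier, stood at 12.4, 12.3 and 12.8 FPKM in untreated and 19.6, 19.8 and 20.2 FPKM in LPS-treated macrophages, at 12.1, 13.1 and 13 FPKM in untreated osteoclasts, and at 14, 15.7 and 14.6 FPKM in LPS-treated ones. Its level before LPS overlapped between the cell types, with a log2 difference of 0.03 (95% interval -0.06 to 0.12), which became -0.38 and was called lower as TPM. It rose by 0.63 (SE 0.05, adjusted p 1.36e-07) in macrophages, a change that was 0.02 and not called as TPM, and by 0.20 (SE 0.05, adjusted p 0.0133) in osteoclasts, not called as TPM or after quantile normalization. Without replicate 1 of untreated osteoclasts the osteoclast call was lost, at 0.16.

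Slc2a6 (GLUT6, ENSMUSG00000036067, chromosome 2, 27021363 to 27027998) lies mostly on inner membranes of the cell, and its window was shown above. In macrophages it stood at 4.47, 4.09 and 4.46 FPKM without and 191, 165 and 179 FPKM with LPS. In osteoclasts the libraries held 1.30, 1.55 and 1.15 FPKM without and 14.7, 9.92 and 14.8 FPKM with LPS. No groups overlapped, and LPS-treated osteoclasts reached above untreated macrophages while staying 13.6-fold under LPS-treated ones. The log2 difference with LPS was 5.07 (SE 0.12, adjusted p 5.01e-12) in macrophages and 2.58 (SE 0.12, adjusted p 3.96e-08) in osteoclasts, where the mean rose 9.84-fold. Their difference, the interaction, was -2.49 (SE 0.17, adjusted p 1.82e-07). Before LPS the gene was lower in osteoclasts, at -1.20 (SE 0.12) against macrophages. The log2(FPKM + 1) scale understates changes that start near 1 FPKM, here the osteoclast rise. Voom, limma's method for counts, put that rise at 3.30 and the macrophage rise at 5.36 on the recovered reads. Its interaction was -2.06, smaller in size than the -2.49 above.

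Slc2a3 (GLUT3, ENSMUSG00000003153, chromosome 6, 122727809 to 122801640), a carrier of high glucose affinity, went the other way. Its libraries held 3.12, 2.70 and 3.06 FPKM in untreated and 0.984, 1.25 and 1.63 FPKM in LPS-treated macrophages. In osteoclasts it was under 0.2 FPKM throughout, resting on 18, 16 and 10 reads without and 8, 1 and 11 with LPS. In macrophages it fell by 0.80 (SE 0.10, adjusted p 1.11e-05) on the log2 scale, and in untreated osteoclasts it was lower, at -1.83 (SE 0.10, adjusted p 3.28e-09). Its interaction of 0.71 (SE 0.14) was called, but voom gave -0.24 and a pseudocount of 0.1 gave 0.61, neither called, so at these read counts no difference in the LPS response could be settled.

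Within a library the shares of these 3 transporters do not depend on scaling. As percent of their summed FPKM, Slc2a1 took 63.1% ± 1.26 in untreated macrophages, 9.99% ± 0.697 after LPS, 89.8% ± 1.39 in untreated osteoclasts and 53.2% ± 7.03 after LPS (SD, n = 3). Slc2a6 took 21.9%, 89.4% ± 0.822, 9.38% and 46.7% ± 6.91 in the same order. Of these 3, Slc2a1 thus held the largest share before LPS in both cell types, and Slc2a6 in LPS-treated macrophages; other GLUT genes are not in the sum. In LPS-treated osteoclasts the ranges of both overlapped, 48.8% to 61.3% for Slc2a1 and 38.7% to 51.0% for Slc2a6. For this and the other families the exact permutation test of 3 libraries against 3 cannot give a two-sided p below 0.1, so the 100 share comparisons made are a description.

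Hexokinases trap glucose in the cell as its phosphate. Hk1 (ENSMUSG00000037012, chromosome 10, 62268855 to 62379908), the housekeeping form bound to mitochondria, stood at 12.5, 12.9 and 12.6 FPKM in untreated macrophages and 18.5, 17.2 and 18.0 FPKM with LPS. Osteoclasts held more, at 29.0, 30.8 and 30.1 FPKM without and 27.4, 30.2 and 27.7 FPKM with LPS. All osteoclast libraries were above all macrophage libraries, by 1.18 (SE 0.05, adjusted p 1.75e-10) before LPS, and the call held as TPM, after quantile normalization and by voom. The rise in macrophages, 0.47 (SE 0.05), turned to -0.15 as TPM, and in osteoclasts Hk1 was not called as deposited, at -0.08 (95% interval -0.16 to 0.01).

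Hk2 (ENSMUSG00000000628, chromosome 6, 82725025 to 82774454), the form induced by insulin and hypoxia, stood at 10.8, 9.58 and 11.1 FPKM in untreated and 74.7, 72.1 and 74.8 FPKM in LPS-treated macrophages. Osteoclasts held 5.19, 5.48 and 5.80 FPKM without and 9.10, 10.6 and 9.76 FPKM with LPS. LPS-treated osteoclasts therefore came to the level of untreated macrophages, with overlapping libraries, and LPS-treated macrophages stood apart from all other groups. The log2 difference with LPS was 2.71 (SE 0.06, adjusted p 3.46e-12) in macrophages and 0.74 (SE 0.06, adjusted p 5.86e-06) in osteoclasts, with an interaction of -1.97 (SE 0.09, adjusted p 3.98e-09). It stayed called in the same direction in all these contrasts as TPM and after quantile normalization.

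Hk3 (ENSMUSG00000025877, chromosome 13, 55005985 to 55021385), a form found mainly in blood cells, was the most abundant hexokinase of macrophages, at 69.5, 71.7 and 70.1 FPKM without and 104, 108 and 102 FPKM with LPS. It was at 9.37, 8.52 and 9.04 FPKM in untreated and 10.8, 8.91 and 10.0 FPKM in LPS-treated osteoclasts, or -2.84 (SE 0.06, adjusted p 8.83e-13) against macrophages before LPS and -3.28 (SE 0.06) with it. The macrophage rise of 0.56 (SE 0.06) did not hold as TPM (-0.08, not called) and was -0.22 after quantile normalization. In osteoclasts LPS gave 0.13 (SE 0.06), not called. As shares, Hk3 held 75.3% ± 0.75 of hexokinase FPKM in untreated macrophages and 20.2% ± 1.25 in untreated osteoclasts (SD, n = 3), while Hk1 held 13.5% and 67.5%. LPS moved the Hk2 share from 11.2% ± 0.896 to 37.6% ± 0.920 in macrophages and from 12.3% ± 0.504 to 20.4% ± 1.07 in osteoclasts. The main hexokinase transcript was thus Hk3 in macrophages and Hk1 in osteoclasts, with and without LPS.

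**Figure D4:**
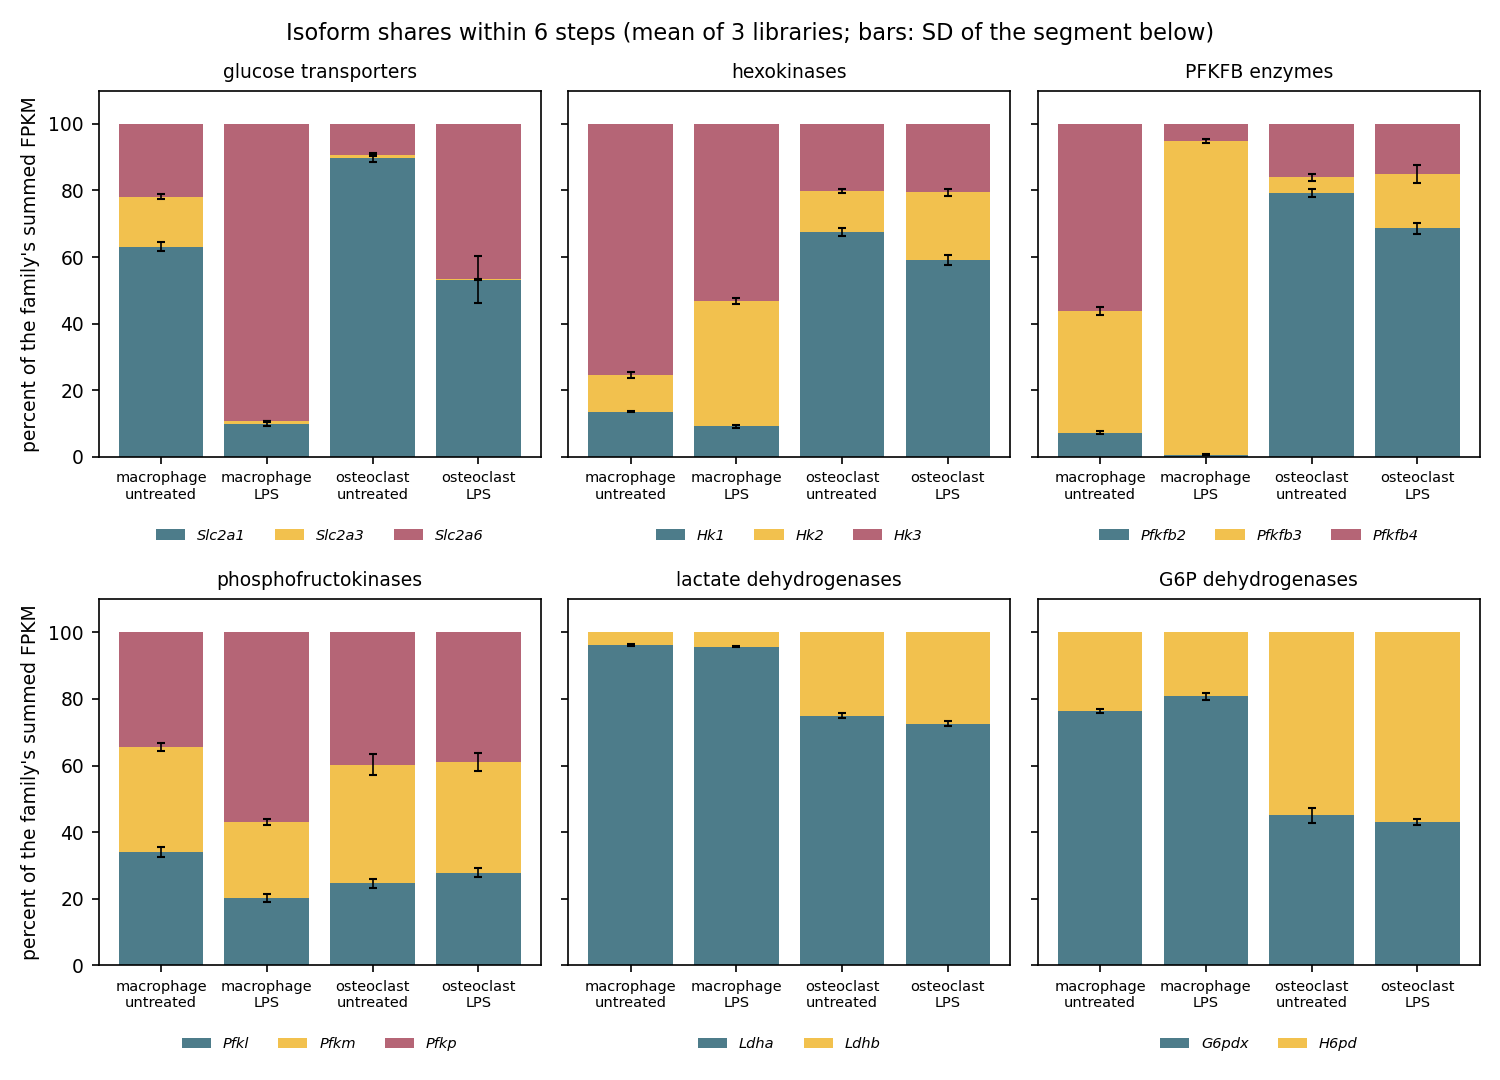
Share of each isoform in the summed FPKM of its family for 6 families, as stacked bars of group means over 3 libraries, with error bars for the SD of the segment below. Slc2a6 and Pfkfb3 fill 89.4% and 94.3% of their bars in LPS-treated macrophages, while Hk1 and Pfkfb2 fill most of theirs in osteoclasts.

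Gpi1 (ENSMUSG00000036427, chromosome 7, 34201330 to 34230336), the isomerase after hexokinase, was at 51.4 ± 0.455 FPKM in untreated macrophages and 74.0 ± 0.682 FPKM in untreated osteoclasts (SD, n = 3), which is a difference in log2 of 0.52 (SE 0.04, adjusted p 9.34e-08), or 0.11 as TPM, called under each. LPS gave -0.01 (95% interval -0.08 to 0.07) in macrophages and 0.01 (-0.07 to 0.08) in osteoclasts as deposited, and the macrophage value was -0.65 and called lower as TPM.

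Phosphofructokinase commits sugar to glycolysis, with liver, muscle and platelet forms. Pfkp (ENSMUSG00000021196, chromosome 13, 6579768 to 6648777), the platelet form, stood at 4.99, 5.06 and 4.91 FPKM in untreated and 13.8, 13.2 and 13.8 FPKM in LPS-treated macrophages, at 8.32, 8.88 and 8.53 FPKM in untreated osteoclasts, and at 8.81, 8.89 and 8.76 FPKM in LPS-treated ones. Macrophages crossed the osteoclast level with LPS, from below all osteoclast libraries to above them. The LPS effect was 1.28 (SE 0.04, adjusted p 3.19e-11) in macrophages and 0.04 (95% interval -0.04 to 0.11) in osteoclasts, and the interaction of -1.25 (SE 0.06, adjusted p 3.36e-09) was called under each scaling. Pfkp shares exon sequence with Pitrm1 on the opposite strand, at a mean of 14.5 FPKM, and the labels do not say whether counting used strand.

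Pfkl, the liver form, stood at 5.04, 4.73 and 5.03 FPKM in untreated and 4.47, 4.91 and 5.07 FPKM in LPS-treated macrophages. It stood at 5.24, 5.44 and 5.24 FPKM in untreated and 6.39, 6.20 and 6.31 FPKM in LPS-treated osteoclasts, the latter above all other libraries. It was the phosphofructokinase that rose in osteoclasts, by 0.21 (SE 0.05, adjusted p 0.0114), 0.17 and not called as TPM. Pfkm, the muscle form, was at 4.48, 4.81 and 4.44 FPKM in untreated and 5.30, 5.16 and 5.86 FPKM in LPS-treated macrophages, at 6.55, 7.87 and 8.83 FPKM in untreated osteoclasts, and at 7.83, 8.33 and 6.51 FPKM in LPS-treated ones. All its osteoclast libraries were above all macrophage libraries, by 0.64 (SE 0.10) before LPS, and as deposited it was not called with LPS in either cell type. The 3 forms held near equal shares of FPKM in untreated macrophages, 34.0%, 31.6% and 34.4% for Pfkl, Pfkm and Pfkp. FPKM divides by gene length, here 6675, 3340 and 13401 bases. Their reads were unequal, at 780, 347 and 1549 in untreated macrophage replicate 1. Pfkp took 57.0% ± 1.37 after LPS in macrophages (SD, n = 3), and 39.7% and 38.9% in osteoclasts without and with LPS.

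The PFKFB enzymes make and break the activator of phosphofructokinase. Pfkfb3 (ENSMUSG00000026773, chromosome 2, 11471433 to 11554077) stood at 6.40, 6.64 and 5.89 FPKM in untreated and 63.5, 55.0 and 64.9 FPKM in LPS-treated macrophages. In osteoclasts it stood at 0.967, 0.657 and 0.988 FPKM without LPS, on 135, 84 and 127 reads, and 2.79, 2.22 and 2.91 FPKM with LPS. All LPS-treated osteoclast libraries remained below the untreated macrophage libraries. The log2 difference with LPS was 3.09 (SE 0.10, adjusted p 3.62e-11) in macrophages and 0.96 (SE 0.10, adjusted p 2.00e-05) in osteoclasts, where the means rose 3.03-fold. The interaction was -2.12 (SE 0.13, adjusted p 7.17e-08), -1.34 as TPM and -1.65 by voom, called each time. ACGTG was found 60 bases before the outer RefSeq start of this gene and 53 and 52 bases before an inner one.

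Pfkfb2 (ENSMUSG00000026409, chromosome 1, 130689182 to 130729253), known as the heart form, had the opposite pattern. It held 1.22, 1.24 and 1.31 FPKM in untreated and 0.432, 0.471 and 0.265 FPKM in LPS-treated macrophages, the last on 40, 51 and 27 reads. Osteoclasts held 14.7, 14.5 and 14.5 FPKM without and 10.9, 11.7 and 10.6 FPKM with LPS. Every osteoclast library was above every macrophage library, by 2.79 (SE 0.06, adjusted p 1.5e-12) before LPS and 3.12 (SE 0.06) with it. With LPS it fell by 0.70 (SE 0.06, adjusted p 5.87e-07) on the log2 scale in macrophages and fell by 0.36 (SE 0.06, adjusted p 0.00136) in osteoclasts. Both calls held as TPM, after quantile normalization and by voom. TPM and quantile normalization lower the typical gene in these comparisons, so calls kept under them add no support. With a pseudocount of 0.1 the osteoclast value was -0.39 and not called.

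Pfkfb4 (ENSMUSG00000025648, chromosome 9, 108991778 to 109032228) stood at 9.58, 10.1 and 9.57 FPKM in untreated macrophages and 3.29, 3.28 and 3.33 FPKM after LPS, at 2.79, 2.97 and 3.11 FPKM in untreated osteoclasts, and at 2.24, 2.70 and 2.34 FPKM in LPS-treated ones. Untreated macrophages stood above the other 3 groups. It fell by 1.32 (SE 0.06, adjusted p 8.72e-10) on the log2 scale in macrophages and fell by 0.21 (SE 0.06, adjusted p 0.0263) in osteoclasts, and the interaction was 1.11 (SE 0.08, adjusted p 2.69e-07). The osteoclast call was lost without replicate 1 or 3 of LPS-treated osteoclasts, at -0.17 and -0.19, and without replicate 2 or 3 of untreated osteoclasts, at -0.21 and -0.18. In shares of PFKFB FPKM, macrophages moved from 56.3% ± 0.727 Pfkfb4 and 36.4% Pfkfb3 to 94.3% ± 0.591 Pfkfb3 with LPS (SD, n = 3). Osteoclasts were mostly Pfkfb2, at 79.2% ± 1.11 without and 68.6% ± 1.72 with LPS, and Pfkfb3 went from 4.73% to 16.4%. The predominant PFKFB transcript therefore differed between the cell types and changed with LPS in macrophages.

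The lower steps run from aldolase to pyruvate kinase. Gpi1 and the members from aldolase to pyruvate kinase, without the phosphofructokinases, were 11 members. Of these, 9 were called higher in untreated osteoclasts, Eno2 was lower and Eno3 was not called, where 38.8% of all genes were higher and 39.0% lower. Their median was 0.87 on the log2 scale against 0.00 over all genes. Aldoa (ENSMUSG00000030695, chromosome 7, 126795234 to 126800751), the main aldolase, stood at 244, 262 and 262 FPKM in untreated and 280.4, 289 and 282 FPKM in LPS-treated macrophages, at 775, 807 and 790.2 FPKM in untreated osteoclasts, and at 799, 845 and 759 FPKM in LPS-treated ones. Every osteoclast library was above every macrophage library, by 1.62 (SE 0.05, adjusted p 1.17e-11) before LPS, 1.21 as TPM. A second Ensembl ID with this symbol lies just upstream and held at most 31 reads in a library; it was left out.

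Pgam1 (ENSMUSG00000011752, chromosome 19, 41911923 to 41918660), a phosphoglycerate mutase, stood at 60.5, 63.1 and 61.9 FPKM in untreated macrophages and 42.4, 48.3 and 45.3 FPKM with LPS. In osteoclasts it stood at 157, 169 and 167 FPKM without and 172, 181 and 162 FPKM with LPS, above all macrophage libraries. In macrophages it fell by 0.44 (SE 0.05, adjusted p 1.46e-05) on the log2 scale, and it gave 0.06 (SE 0.05) in osteoclasts, not called. The macrophage fall was called under each scaling. TPM and quantile normalization lower the typical gene in that comparison, so calls kept under them add no support. The osteoclast excess was 1.40 (SE 0.05) without and 1.90 (SE 0.05) with LPS.

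The remaining abundant enzymes followed the same order between cell types. In untreated osteoclasts against untreated macrophages the log2 difference was 1.10 (SE 0.05) for Pgk1, 1.05 (SE 0.05) for Tpi1 and 0.87 (SE 0.05) for Eno1, and 0.68, 0.64 and 0.46 as TPM, called higher each way. Tpi1 interconverts the triose phosphates, Pgk1 makes the first ATP of the lower steps, and Eno1 is the common enolase. Gapdh, often used as a reference gene, stood at 265 ± 16.9 FPKM in untreated macrophages and 374 ± 5.83 FPKM in untreated osteoclasts (SD, n = 3), 0.49 (SE 0.05) as deposited and 0.08 without a call as TPM. Pkm, pyruvate kinase, was higher in osteoclasts by 0.22 (SE 0.04) as deposited but -0.20 and called lower as TPM. With LPS in macrophages, Pgk1 gave 0.20, Gapdh 0.09, Pkm 0.05, Tpi1 -0.19 and Eno1 -0.18 as deposited, and each was called lower as TPM, between -0.45 and -0.84. In osteoclasts none of the 5 was called with LPS. Gapdh, Pgk1, Tpi1, Eno1, Pgam1, Aldoa and Ldha have near-identical copies or pseudogenes that can take some of their reads, so their levels are uncertain to that extent. Annotated exons of 12 members (Slc2a1, Hk1, Hk3, Gpi1, Pfkm, Pfkp, Pfkfb2, Aldoa, Tpi1, Gapdh, G6pdx and Rpe) overlap a gene on the opposite strand, and those of 5 (Pfkm, Pfkfb2, Pkm, Pgls and Tkt) one on the same strand, and reads of such stretches can count for either gene.

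Aldoc, the brain aldolase, rose with Aldoa in osteoclasts, from 3.86, 4.17 and 4.40 FPKM in untreated macrophages to 13.1, 15.2 and 14.5 FPKM in untreated osteoclasts, by 1.57 (SE 0.06, adjusted p 2.84e-10). With LPS it held 3.72, 4.07 and 3.93 FPKM in macrophages and 14.1, 14.7 and 13.2 FPKM in osteoclasts, and its share of aldolase FPKM stayed under 2% in every group. Eno2 (ENSMUSG00000004267, chromosome 6, 124760053 to 124769673), the neuronal enolase, held 1.48, 1.30 and 1.23 FPKM in untreated and 3.18, 2.63 and 3.49 FPKM in LPS-treated macrophages. In osteoclasts it held 0.299, 0.164 and 0.238 FPKM without LPS, on 26, 13 and 19 reads, and 0.794, 0.648 and 0.838 FPKM with LPS, on 74, 47 and 72 reads. LPS raised it in both cell types, by 0.81 (SE 0.09, adjusted p 4.65e-06) and 0.51 (SE 0.09, adjusted p 0.0016), while macrophages stayed above osteoclasts at either condition. Its interaction was not called, at -0.30 (95% interval -0.54 to -0.05), and its sign depended on the method, with 0.51 by voom, 0.40 as TPM, neither called, and -0.43, called lower, after quantile normalization. With the replicate number as a block the interaction was called lower, at -0.30. Eno3, the muscle form, was between 1.26 and 2.98 FPKM in all libraries and as deposited was called only between cell types with LPS, at 0.59 (SE 0.14, adjusted p 0.00235).

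Lactate dehydrogenase joins pyruvate and lactate, and the LDHA subunit is known to favour lactate formation while LDHB favours the reverse. Ldhb (ENSMUSG00000030246, chromosome 6, 142490249 to 142507957) stood at 4.62, 4.17 and 4.46 FPKM in untreated and 4.69, 4.87 and 5.17 FPKM in LPS-treated macrophages. In osteoclasts it stood at 85.9, 87.1 and 90.2 FPKM without and 113, 105 and 99.8 FPKM with LPS. No osteoclast library came near a macrophage library, and the log2 difference was 4.03 (SE 0.05, adjusted p 1.88e-14) without and 4.18 (SE 0.05, adjusted p 1.46e-14) with LPS. LPS raised Ldhb in osteoclasts by 0.27 (SE 0.05, adjusted p 0.00369), called under each scaling. Its macrophage value, 0.13 (SE 0.05, adjusted p 0.049), became -0.46 as TPM, and the call was lost without any one of 8 libraries (replicates 2 and 3 of each macrophage group, replicate 2 of LPS-treated osteoclasts, and each untreated osteoclast library), at 0.09 to 0.13. That call was also lost by voom, at 0.16, and with the replicate number as a block.

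Ldha (ENSMUSG00000063229, chromosome 7, 46841475 to 46855627) stood at 108, 113 and 110.3 FPKM in untreated and 103, 115 and 112 FPKM in LPS-treated macrophages, with overlapping libraries. It stood at 264, 266 and 259.9 FPKM in untreated and 288, 285 and 269 FPKM in LPS-treated osteoclasts, higher than macrophages by 1.25 (SE 0.04, adjusted p 9.48e-11) without LPS. After 3 h of LPS it differed by -0.01 (95% interval -0.09 to 0.08) in macrophages, or -0.65 and called lower as TPM. In osteoclasts it differed by 0.09 (95% interval 0.00 to 0.18), not called. Ldhb was 3.85% ± 0.279 of lactate dehydrogenase FPKM in untreated macrophages, 4.28% ± 0.18 with LPS, 25.0% ± 0.679 in untreated osteoclasts and 27.4% ± 0.634 with LPS (SD, n = 3). The share of Ldhb was thus larger in osteoclasts at either condition.

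Lactate leaves through the monocarboxylate transporters. Slc16a1 (MCT1, ENSMUSG00000032902, chromosome 3, 104638668 to 104658462) stood at 4.21, 4.37 and 5.32 FPKM in untreated and 5.63, 6.80 and 5.92 FPKM in LPS-treated macrophages, at 3.55, 3.14 and 3.50 FPKM in untreated osteoclasts, and at 2.83, 3.05 and 2.97 FPKM in LPS-treated ones. All osteoclast libraries were below all macrophage libraries. It rose in macrophages by 0.34 (SE 0.08, adjusted p 0.00279), -0.23 and not called as TPM, and was lower in osteoclasts, at -0.35 (SE 0.08) without and -0.85 (SE 0.08) with LPS. Slc16a3 (MCT4, ENSMUSG00000025161, chromosome 11, 120948480 to 120960868), the exporter of highly glycolytic cells, stood at 4.76, 4.37 and 4.13 FPKM in untreated and 3.05, 4.07 and 3.14 FPKM in LPS-treated macrophages. It stood at 3.86, 4.18 and 4.08 FPKM in untreated and 4.26, 4.99 and 4.37 FPKM in LPS-treated osteoclasts, the untreated ones within the range of the macrophage libraries. In macrophages it fell by 0.30 (SE 0.09, adjusted p 0.00859) on the log2 scale and gave 0.13 (SE 0.09), not called, in osteoclasts. The pair split their summed FPKM near evenly before LPS, with Slc16a1 at 51.1% ± 4.77 in macrophages and 45.6% ± 2.54 in osteoclasts (SD, n = 3), and at 64.2% and 39.4% with LPS.

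PDK kinases switch off pyruvate dehydrogenase. Pdk1 (ENSMUSG00000006494, chromosome 2, 71873224 to 71903858) stood at 4.23, 4.59 and 4.32 FPKM in untreated and 3.34, 3.64 and 3.80 FPKM in LPS-treated macrophages, at 21.2, 21 and 22.2 FPKM in untreated osteoclasts, and at 19.6, 20.3 and 18.9 FPKM in LPS-treated ones. All osteoclast libraries were above all macrophage libraries, by 2.06 (SE 0.05, adjusted p 3.13e-12) without and 2.16 (SE 0.05) with LPS. In LPS-treated macrophages it fell by 0.23 (SE 0.05) on the log2 scale. Pdk3 moved the other way with LPS, from 3.86, 4.25 and 4.63 FPKM to 6.03, 6.78 and 6.84 FPKM in macrophages, by 0.53 (SE 0.07, adjusted p 1.46e-05), or -0.02 and not called as TPM. Pdk3 was also higher in osteoclasts, at 14.1, 13 and 14.5 FPKM without and 14.8, 15.9 and 15.2 FPKM with LPS, above macrophages by 1.5 (SE 0.07) without LPS. The Pdk1 share of the pair was 50.8% ± 2.20 in untreated and 35.5% ± 0.421 in LPS-treated macrophages and 60.8% and 56.2% in osteoclasts.

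The pentose phosphate pathway opens with glucose phosphate dehydrogenase, the main source of cytosolic NADPH. G6pdx (ENSMUSG00000031400, chromosome X, 74409483 to 74429194) stood at 68.9, 68.3 and 68.1 FPKM in untreated and 82.8, 79.2 and 79.5 FPKM in LPS-treated macrophages. Osteoclasts held 19.7, 18.8 and 18.6 FPKM without and 20.1, 17.5 and 18.8 FPKM with LPS. All osteoclast libraries were below all macrophage libraries, at -1.80 (SE 0.05, adjusted p 5.39e-12) without and -2.04 (SE 0.05, adjusted p 1.37e-12) with LPS, and -2.25 and -1.92 as TPM. The macrophage rise of 0.23 (SE 0.05) reversed to -0.41 as TPM and -0.52 after quantile normalization. G6pdx shares exon sequence with Ikbkg on the opposite strand, whose mean was 14.8 FPKM. H6pd, the form inside the endoplasmic reticulum, was at 21, 20.7 and 21.8 FPKM in untreated and 18.4, 20.1 and 19.2 FPKM in LPS-treated macrophages, at 21.7, 23.9 and 24.2 FPKM in untreated osteoclasts, and at 25.5, 23.5 and 25.8 FPKM in LPS-treated ones. G6pdx took 76.4% ± 0.533 of the summed FPKM of both in untreated macrophages and 45.0% ± 2.24 in untreated osteoclasts (SD, n = 3).

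The later pentose phosphate enzymes differed less. Pgd (ENSMUSG00000028961, chromosome 4, 149149991 to 149166771), the NADPH-producing enzyme after it, stood at 81.7, 82.8 and 81.4 FPKM in untreated and 105, 104 and 106 FPKM in LPS-treated macrophages, at 83.2, 83.3 and 85.6 FPKM in untreated osteoclasts, and at 83.3, 83.1 and 79.1 FPKM in LPS-treated ones. LPS-treated macrophages stood above the other 3 groups. It rose in macrophages by 0.35 (SE 0.03, adjusted p 7.23e-07), but was -0.29 as TPM and -0.43 after quantile normalization, called lower in both. Rpe, an epimerase, gave 0.55 (SE 0.06, adjusted p 2.24e-06) in LPS-treated macrophages, -0.05 and not called as TPM, and Rpia, an isomerase, fell by 0.28 (SE 0.07, adjusted p 0.00415) on the log2 scale. Between untreated cell types, Rpe and Pgls, a lactonase, were higher in osteoclasts, by 0.52 (SE 0.06) and 0.59 (SE 0.07), and called as TPM too. Tkt and Taldo1 return the sugars to glycolysis, and Tkt was 0.26 (SE 0.05) higher in osteoclasts but -0.15 as TPM, while Taldo1 was not called at -0.01 (95% interval -0.09 to 0.07). In osteoclasts none of the 8 pentose phosphate members was called with LPS as deposited, where 11.1% of all genes were higher and 6.59% lower. Pgd there was called lower as TPM and after quantile normalization, at -0.11 and -0.14, and Taldo1 after quantile normalization, at -0.15. In macrophages 4 were called higher and 2 lower, near the 36.8% and 33.1% of all genes, and all 4 of the higher ones were reversed or without a call as TPM.

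The interaction tested if LPS acted unequally on the cell types. Of the members, 13 had a lower and 10 a higher LPS effect in osteoclasts than in macrophages, where 30.0% and 26.6% of all genes did, with a median of -0.05 against -0.01. The 4 members beyond 1 on the lower side were Slc2a6, Pfkfb3, Hk2 and Pfkp, and they were called lower as TPM and after quantile normalization as well. The other 9 called lower were either without a call or reversed as TPM, which moved the median of all genes to 0.51 and the share of higher calls from 47.0% to 82.0%; quantile normalization gave 59.9%. Members called were then 25 higher and 4 lower as TPM and 20 and 9 after quantile normalization. On the other side Pfkfb4 stood highest at 1.11, being lowered less by LPS in osteoclasts, where its starting level was lower.

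**Figure D5:**
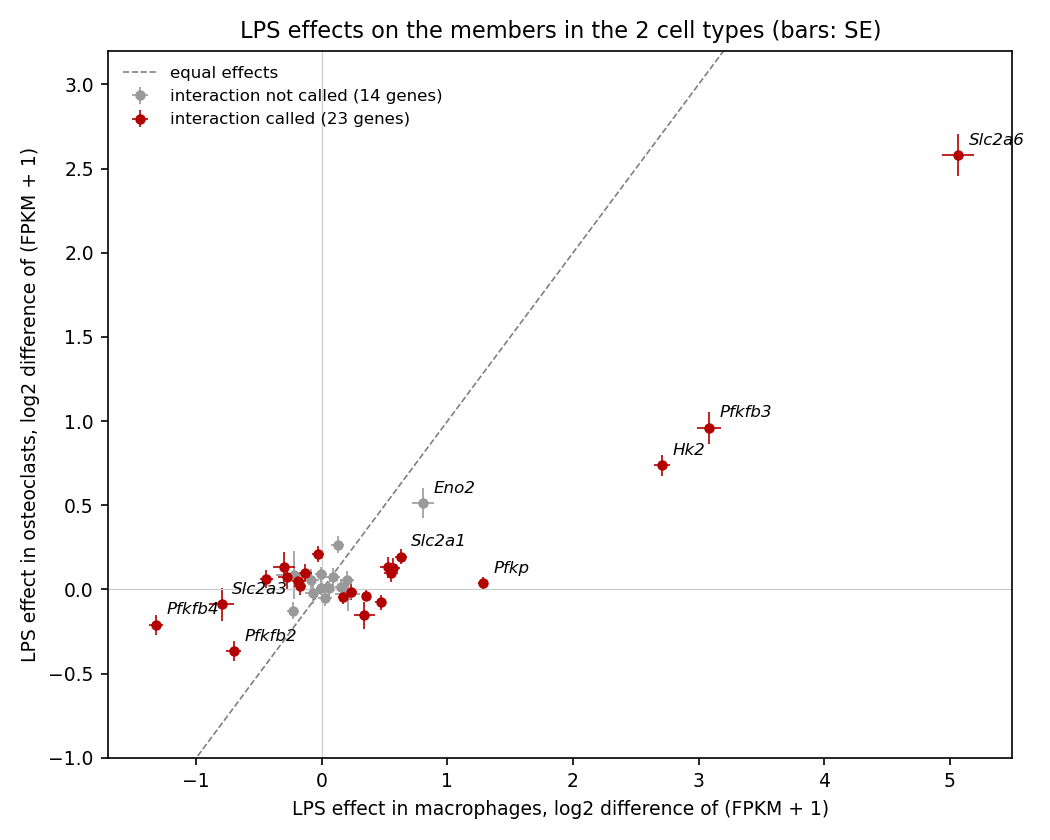
LPS effect on each member in osteoclasts against that in macrophages, as log2 differences of (FPKM + 1) with SE bars, red where the interaction was called. Slc2a6, Pfkfb3, Hk2 and Pfkp lie far right and below the dashed line of equal effects, while Eno2, in grey, lies nearer to it.

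As a whole, the 37 members took 0.773% ± 0.0242 of TPM in untreated macrophages, 0.604% ± 0.0176 after LPS, 0.973% ± 0.0105 in untreated osteoclasts and 0.956% ± 0.0419 after LPS (SD, n = 3). The sum is carried by Gpi1 and the lower glycolysis enzymes, which together took 0.493% ± 0.0197 of TPM in untreated macrophages and 0.708% ± 0.00867 in untreated osteoclasts. In FPKM as deposited, the summed level of all members was 1999 ± 61.1 in untreated and 2445 ± 50.1 in LPS-treated macrophages, so the LPS direction of the sum differs between the scales. The sum over the 6 members of sugar entry was higher in LPS-treated macrophages on both scales, going from 113 ± 0.659 to 396 ± 13.1 FPKM and from 0.0439% ± 0.000650 to 0.0977% ± 0.00263 of TPM, and the libraries did not overlap. Slc2a6 accounted for most of this step, and Slc2a3 fell. In osteoclasts the sum went from 58.7 ± 1.31 to 76.1 ± 0.787 FPKM. The lactate and pyruvate members summed to 132 ± 2.84 FPKM in untreated macrophages and 394 ± 0.95 FPKM in untreated osteoclasts.

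Genes next to these members were taken from lists drawn up for this purpose. Their counts stand against the same shares of all genes as those of the members: 38.8% higher and 39.0% lower in untreated osteoclasts, 36.8% and 33.1% with LPS in macrophages, and 11.1% and 6.59% with LPS in osteoclasts. Of 12 genes for the entry of pyruvate into mitochondria, 11 were tested, and 9 were higher and none lower in untreated osteoclasts as deposited, with a median of 1.33 against 0.00 over all genes; Pdp1 and Pdp2 were called lower as TPM. Pdhb and Pdha1, subunits of pyruvate dehydrogenase, led with 2.85 (SE 0.04) and 2.28 (SE 0.04), from 13.1 ± 0.263 to 100.3 ± 0.557 FPKM for Pdhb (SD, n = 3). In LPS-treated macrophages 3 were higher and 3 lower as deposited, Dld highest at 0.85 (SE 0.06) and Pdpr lowest at -0.74 (SE 0.08). As TPM only Dld stayed called higher, Mpc1 was not called, and all others were called lower. Among these, Pdhb turned from 0.20 to -0.43. In LPS-treated osteoclasts Pdp1 and Pdk2 were lower and none was higher as deposited. Neither of them was called with the replicate number as a block, and by voom Mpc2, a subunit of the pyruvate carrier, was called higher, at 0.21. 

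Among 27 further genes of glycolysis and of sugar and lactate transport, 10 were tested, and 5 were higher and 4 lower in untreated osteoclasts. Emb, a chaperone of lactate transporters, rose to 66.0 ± 1.94 FPKM from 5.33 ± 0.107 FPKM in untreated macrophages (SD, n = 3), which is a difference in log2 of 3.40 (SE 0.08), and Slc16a7 (MCT2) followed at 1.84 (SE 0.06). Slc2a9, a urate transporter, and Slc2a8, a further GLUT carrier, were lowest, at -1.90 (SE 0.08) and -0.97 (SE 0.07). With LPS in macrophages 2 were higher and 3 lower as deposited. As TPM only Minpp1 stayed called higher and all others were called lower, Bsg turning from 0.24 to -0.41. Minpp1, an inositol phosphate phosphatase that also removes phosphate from bisphosphoglycerate, led at 1.64 (SE 0.04), and Bpgm, which makes bisphosphoglycerate, was lowest at -0.91 (SE 0.13). With LPS in osteoclasts 1 was higher, Adpgk, a kinase that uses ADP to phosphorylate glucose, at 0.20 (SE 0.06), not called as TPM.

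Of 8 other pentose phosphate genes 5 were tested, and 2 were higher and 3 lower in untreated osteoclasts. Prps1, which turns ribose phosphate into the nucleotide precursor PRPP, was lowest at -2.09 (SE 0.15), and Shpk, a sedoheptulose kinase known as a brake on macrophage activation, was highest at 0.90 (SE 0.09). In LPS-treated macrophages Shpk fell from 0.824 ± 0.166 to 0.121 ± 0.0408 FPKM (SD, n = 3), which is a difference in log2 of -0.70 (SE 0.09). In the same comparison 1 was higher, Idnk at 0.55, which was 0.03 and not called as TPM. None was called in LPS-treated osteoclasts without the replicate block, and Idnk, at 0.19, was called higher with it. Of 11 glycogen genes 9 were tested, and 5 were higher and 3 lower in untreated osteoclasts, with Gys1, glycogen synthase, at 1.76 (SE 0.05) and Pygb, a phosphorylase, at -1.38 (SE 0.05). LPS in macrophages gave 4 higher and 3 lower, with Gyg, the glycogen primer, highest at 0.64, which was 0.02 and not called as TPM. Gbe1 was not called as TPM either, and Pgm2 and Ugp2 turned to called lower, at -0.35 and -0.46. Of 8 gluconeogenesis genes 4 were tested, and in LPS-treated macrophages 2 were lower, Slc37a4 at -0.81 (SE 0.09) and Pck2 at -0.45 (SE 0.06), while none was called in LPS-treated osteoclasts.

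Of 22 genes of the hypoxia-inducible factor pathway 18 were tested. In LPS-treated macrophages 7 were higher and 6 lower, near the shares of all genes (36.8% and 33.1%), and in osteoclasts 5 were higher and none lower as deposited (11.1% and 6.59% of all genes). Egln1 in osteoclasts, at -0.13, was called lower as TPM, after quantile normalization and with the replicate block, and Ddit4, at -0.22, after quantile normalization and with a pseudocount of 0.1. Ero1l lost its higher call in osteoclasts with the replicate block. Hif1a, the oxygen-regulated subunit, went from 22.6 ± 0.465 to 63.3 ± 2.08 FPKM in macrophages and from 14.7 ± 0.725 to 23.1 ± 1.58 FPKM in osteoclasts (SD, n = 3), with differences in log2 of 1.44 (SE 0.05) and 0.62 (SE 0.05). Adm, a known target, rose by 2.83 (SE 0.14) and 0.84 (SE 0.14), starting from under 0.3 FPKM. Egln1, a prolyl hydroxylase that marks the factor for decay, fell by 1.08 (SE 0.05) on the log2 scale in macrophages. Between untreated cell types 5 were higher and 8 lower in osteoclasts, from Bhlhe40 at 3.82 (SE 0.08) to Vhl at -1.05 (SE 0.08). Bhlhe40, a repressor, and Vegfa, a vessel growth factor, had higher LPS effects in osteoclasts, with interactions of 1.34 (SE 0.11) and 1.25 (SE 0.10). With LPS the mean of Bhlhe40 fell from 4.25 to 1.26 FPKM in macrophages and went from 72.8 to 80.1 FPKM in osteoclasts. That of Vegfa fell from 6.27 to 3.51 FPKM in macrophages and rose from 7.29 to 11.3 FPKM in osteoclasts.

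Of 11 other regulators of sugar metabolism 9 were tested. In LPS-treated macrophages 5 were higher and 3 lower. Myc, a transcription factor that acts on many glycolysis genes, fell from 23.7 ± 1.34 to 1.82 ± 0.483 FPKM (SD, n = 3), which is a difference in log2 of -3.14 (SE 0.11), and in osteoclasts it was at 9.57 ± 0.431 and 10.9 ± 1.07 FPKM without and with LPS, with an interaction of 3.31 (SE 0.15). Txnip, which restrains glucose uptake, fell by 1.92 (SE 0.06) on the log2 scale in macrophages and fell by 0.86 (SE 0.06) in osteoclasts. Mlxip, a glucose-sensing partner of Mlx, rose in macrophages by 1.25 (SE 0.07). Untreated osteoclasts had 4 of the 9 higher, led by Arrdc4 at 1.92 (SE 0.08), and 4 lower, led by Myc at -1.22 (SE 0.11). The differences named for these regulators kept their direction as TPM and after quantile normalization.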

How the data were processed

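The authors deposited FPKM values per gene for 12 libraries; fastp, STAR, featureCounts, DESeq2 and mm10 are named, with no roles or versions, in the submitters' processing notes, and whether strand was used in counting is not given in the sources used here. Low values moved in steps of whole reads for 25806 of 25854 genes above 0 (99.81%, tolerance 0.02), so reads were recovered; from these, each library's denominator equalled a size factor times the geometric mean of the totals, a scaling to the typical gene that is inferred from the values.

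Genes with at least 1 FPKM in 3 of 12 libraries were tested (11335). The deposited FPKM were taken to log2(FPKM + 1) and fitted with limma 3.58.1 (R 4.3.3), with 4 group means over all libraries, a mean-variance trend, two-sided tests and Benjamini-Hochberg adjustment over all genes tested, called under 0.05. Fold changes on this scale understate those of low genes; ratios are of mean FPKM. The fit was also run on simulated data with known changes, the outcome of which is not given here. Depth was 15651763 to 20281452 recovered reads a library.

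The 37 members, the gene lists and the markers were chosen with earlier results of these data known. Values in every library are given for the 4 highest and 4 lowest called members of each contrast and for the isoform families whose shares are described; of neighbouring lists, the 2 highest and 2 lowest called genes of a contrast could be named. Other settings tried were TPM, testing without a filter or only genes averaging 5 FPKM or more, a pseudocount of 0.1, quantile normalization, no trend, a replicate block, voom on recovered reads (FPKM is no count, so this was no main test), only the groups compared, and leaving out each library. A second Ensembl ID under the symbol Aldoa was not counted. Promoter windows came from RefSeq. Python 3.11.15 was used for the rest.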

Additional observations from a re-analysis of the deposited data

Results flagged for a closer look

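The difference between the LPS effects of the cell types (osteoclasts minus macrophages, log2, 3 libraries a group) passed the test in 23 of the 37 members by limma on log2(FPKM + 1), adjusted over all genes tested; over all genes, 26.6% were called higher and 30.0% lower.

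The LPS effect was lower in osteoclasts for 13 members. Among sugar entry genes the difference was -2.49 for Slc2a6, -1.97 for Hk2, -0.54 for Hk1, -0.44 for Hk3 and -0.43 for Slc2a1. At the PFK step it was -2.12 for Pfkfb3 and -1.25 for Pfkp. For lactate and pyruvate genes it was -0.49 for Slc16a1 and -0.39 for Pdk3. In the pentose phosphate pathway it was -0.45 for Rpe, -0.39 for Pgd, -0.25 for G6pdx and -0.21 for Taldo1. As TPM, which moved the median of all genes to 0.51, the calls for Slc2a6, Hk2, Pfkfb3 and Pfkp held and the other 9 did not. Quantile normalization also kept the calls of Hk1, Slc16a1, Pdk3 and Rpe, and voom kept all 13. By voom the difference was smaller in size for Slc2a6, at -2.06, and for Pfkfb3, at -1.65.

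The LPS effect was higher in osteoclasts for 10 members. The difference was 1.11 for Pfkfb4, 0.71 for Slc2a3, 0.50 for Pgam1, 0.43 for Slc16a3, 0.35 for Rpia, 0.34 for Pfkfb2, 0.24 for Pfkl, 0.24 for Tpi1, 0.23 for H6pd and 0.20 for Eno1. As TPM the median of all genes rose to 0.51, so that calls kept under it add no support; after quantile normalization Pfkfb2, at 0.21, and Rpia, at 0.23, were not called. Both were called higher by voom on the recovered reads, at 1.32 and 0.56, and with a pseudocount of 0.1, at 1.11 and 0.54. By voom Slc2a3 was -0.24 and not called, nor was it called with a pseudocount of 0.1.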

How the results depend on the processing

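The direction of small differences depended on the scaling of libraries, as TPM and quantile normalization hold other quantities equal between libraries than the deposited values do; the cause of the difference in sums was not tested. The sign changes given are of values called as deposited or in the alternative; small uncalled values also changed sign. In the LPS effect in macrophages, 15 values changed sign as TPM: Hk1 -0.15, Hk3 -0.078, Pfkm -0.38, Aldoa -0.50, Gapdh -0.56, Pgk1 -0.45, Pkm -0.59, Ldhb -0.46, Slc16a1 -0.23, Pdk3 -0.021, G6pdx -0.41, Pgd -0.29, Rpe -0.047, Tkt -0.62 and Taldo1 -0.48. There, 9 values changed sign after quantile normalization: Hk3 -0.22, Aldoa -0.63, Gapdh -0.69, Pgk1 -0.66, Pkm -0.69, G6pdx -0.52, Pgd -0.43, Tkt -0.62 and Taldo1 -0.72. In osteoclasts against macrophages without LPS, 6 values changed sign as TPM: Slc2a1 -0.38, Pfkl -0.29, Pkm -0.20, H6pd -0.28, Pgd -0.38 and Tkt -0.15. There, 2 values changed sign after quantile normalization: Pkm -0.12 and Pgd -0.28. In osteoclasts against macrophages with LPS, 2 values changed sign after quantile normalization: Pgd 0.0089 and Taldo1 0.13. In the interaction, 12 values changed sign as TPM: Slc2a1 0.11, Hk3 0.14, Aldoa 0.44, Gapdh 0.56, Pgk1 0.43, Pkm 0.53, Pdk3 0.088, G6pdx 0.33, Pgd 0.18, Rpe 0.082, Tkt 0.50 and Taldo1 0.36. There, 9 values changed sign after quantile normalization: Hk3 0.29, Aldoa 0.59, Gapdh 0.64, Pgk1 0.64, Pkm 0.57, G6pdx 0.43, Pgd 0.29, Tkt 0.47 and Taldo1 0.57. By voom on the recovered reads the Slc2a3 interaction changed sign, to -0.24, and the Hk2 share of hexokinases in untreated osteoclasts against untreated macrophages became -4.36 percentage points when reads replaced FPKM, since reads weigh long transcripts more.

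Counts of members moved as follows. For the LPS effect in macrophages, 17 higher became 5 as TPM and 11 after quantile normalization, and 10 lower became 27 and 21, and 6 when only genes averaging 5 FPKM or more were tested. For LPS in osteoclasts, 2 lower became 4 as TPM, 6 after quantile normalization, and 1 each with a pseudocount of 0.1 (Pfkfb2 lost), an average of 5 FPKM or more, or only the groups compared in the fit. For untreated osteoclasts against macrophages, 10 lower became 18 as TPM and 5 at an average of 5 FPKM or more. For the interaction, 10 higher became 25 as TPM, 20 after quantile normalization and 6 at that average, and 13 lower became 4 as TPM. At that average fewer genes were tested, and all genes called went from 7921 to 4851 for LPS in macrophages, from 8822 to 5427 and from 9509 to 5694 between cell types without and with LPS, and from 6413 to 4018 for the interaction.

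In 2220 values with one library left out, no value with a call turned, while some uncalled values near 0 did. Members called lower with LPS in osteoclasts numbered 1 to 2. Calls lost without 1 library were those of Aldoa in macrophages with LPS (untreated macrophage replicate 1, 0.12), Ldhb and H6pd there (H6pd -0.10 to -0.15 without LPS-treated macrophage replicates 1 or 3 or any untreated one), Slc2a1 and Pfkfb4 in osteoclasts with LPS, and 3 further calls. Between untreated cell types, H6pd lost its call at 0.10 to 0.13 (untreated macrophage replicates 1 or 2, LPS-treated macrophage replicate 3, untreated osteoclast replicates 2 or 3) and Rpia at -0.14 to -0.20 (untreated macrophage replicates 1 or 3, untreated osteoclast replicate 3). Eno1 lost its interaction call at 0.14 to 0.19 (LPS-treated macrophage replicate 1, untreated macrophage replicates 2 or 3, LPS-treated osteoclast replicates 1 or 2, untreated osteoclast replicate 3). All 35 calls between cell types with LPS were kept.

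Replicate numbers are shared by the groups, but same-numbered libraries did not deviate together (correlations from -0.0702 to 0.104 over 18 pairs, 1 above 0.1). With the replicate number as a block, 7914 genes in place of 7921 were called for LPS in macrophages and 1930 in place of 2008 in osteoclasts; 183 of 185 member values kept their call, Ldhb in macrophages lost it and the Eno2 interaction gained it, and of the neighbouring genes listed, Pdp1, Pdk2, Pygb and Ero1l lost theirs for LPS in osteoclasts, where Idnk and Egln1 gained one, as did the Pdhb interaction. Libraries of 3 a group and, for Slc2a3, Eno2 and Pfkfb3 in osteoclasts, low reads limit the precision.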
